A study of Mus musculus with 26 samples.

Results

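The 49 genes described here build the machinery that copies DNA in S phase, and their RNA was followed through 26 RNA-seq libraries of mouse natural killer T (NKT) cells and of thymic precursors. The genes are those listed for their function in DNA replication and entry into S phase, and all 49 were present in all 26 libraries, out of 23168 gene symbols measured in every library. All 49 also passed the filter on low values and were among the 11663 genes tested.

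DN1eP-NKT cells (4 libraries) came out of a culture of thymic DN1eP precursors, as the cells that carried the Vα14Jα18 receptor of NKT cells after 10 days on OP9/Dll-1, a mouse stromal cell layer with a Notch ligand, with IL-2 and IL-7 at 5 ng/ml each. DN1eP cells (4 libraries) are those precursors, sorted from the thymus as Lin-, CD44+, CD25-, CD24low, CD5+, CD27+, Ly108- and CXCR3+ and lacking that receptor on their surface. Thymic NKT cells were recognised by TCRβ and by a CD1d dimer loaded with αGalCer, and were split into stage 1 (NKT-1, CD44- NK1.1-, 5 libraries), stage 2 (NKT-2, CD44+ NK1.1-, 7 libraries) and stage 3 (NKT-3, CD44+ NK1.1+, 6 libraries). Every group came from C57BL/6 wild-type mice of 6 to 8 weeks. No label says whether libraries of a group came from separate animals, so p-values measure the spread between these libraries, which may be technical.

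Before a cell copies its DNA, the origin recognition complex, CDC6 and CDT1 load the MCM2-7 helicase ring onto origins in G1, a step called licensing. At the start of S phase the kinase CDC7 with its partner DBF4, together with cyclin E, lets CDC45 and the GINS complex join the ring, and polymerases, the PCNA clamp and its RFC loader then build the new strands from nucleotides that ribonucleotide reductase and its partner enzymes supply. Many of these genes are known targets of E2F transcription factors and are transcribed mostly in cells that are cycling. In the thymus, NKT cells of the early stages are known to expand, while stage 3 cells are known as largely resting cells.

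E2F factors bind a short motif, and the promoters of 4 MCM genes that hold its letters are shown together with that of Rrm2, the member with the largest difference in most comparisons. The search used 8-base strings, TTTCCCGC, TTTCGCGC, TTTGCCGC and TTTGGCGC, on both strands of 300-base windows around the start of each gene in RefSeq (build GRCm38.p6). Windows were given for 41 of the 49 genes. The letters were found in at least 1 window of 13 of these 41 genes, and in 13 of 49 windows (26.5%), against 744 of 32851 windows of all genes (2.27%). Capitals mark these letters in the MCM promoters. In Mcm5 and Mcm6 matches on opposite strands overlap, and in Mcm7 the second match overlaps the letters CCAAT.
Mcm3 promoter, chr1:20820263-20820562, minus strand: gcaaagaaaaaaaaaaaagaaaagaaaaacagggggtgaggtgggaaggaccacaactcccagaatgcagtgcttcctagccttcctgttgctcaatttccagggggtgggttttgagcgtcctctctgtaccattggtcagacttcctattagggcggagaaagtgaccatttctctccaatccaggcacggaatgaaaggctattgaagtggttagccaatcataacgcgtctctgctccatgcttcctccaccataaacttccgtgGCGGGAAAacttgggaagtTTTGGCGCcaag
Mcm5 promoter, chr8:75109259-75109558, plus strand: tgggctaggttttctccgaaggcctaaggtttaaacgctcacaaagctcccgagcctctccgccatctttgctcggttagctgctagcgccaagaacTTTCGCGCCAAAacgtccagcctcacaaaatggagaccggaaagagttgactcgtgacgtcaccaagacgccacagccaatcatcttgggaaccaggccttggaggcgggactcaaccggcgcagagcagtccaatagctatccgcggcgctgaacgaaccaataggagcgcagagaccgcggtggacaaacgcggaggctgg
Mcm6 promoter, chr1:128359656-128359955, minus strand: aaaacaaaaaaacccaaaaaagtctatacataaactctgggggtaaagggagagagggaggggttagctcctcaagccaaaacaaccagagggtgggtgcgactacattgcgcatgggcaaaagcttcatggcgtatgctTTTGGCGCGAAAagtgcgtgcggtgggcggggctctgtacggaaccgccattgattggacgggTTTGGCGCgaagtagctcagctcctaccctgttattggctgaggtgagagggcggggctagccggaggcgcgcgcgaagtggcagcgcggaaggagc
Mcm7 promoter, chr5:138171834-138172133, minus strand: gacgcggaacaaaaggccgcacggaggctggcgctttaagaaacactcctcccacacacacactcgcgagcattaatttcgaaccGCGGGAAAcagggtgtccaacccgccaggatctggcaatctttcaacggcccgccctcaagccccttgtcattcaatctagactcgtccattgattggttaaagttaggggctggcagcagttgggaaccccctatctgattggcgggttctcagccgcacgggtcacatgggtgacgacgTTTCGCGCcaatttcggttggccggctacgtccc
In the Rrm2 window none of the 4 strings was found, and capitals mark CCAAT, the letters of another promoter element, which 27 of 49 windows of these genes (55.1%) and 37.4% of all windows hold on either strand.
Rrm2 promoter, chr12:24708004-24708303, plus strand: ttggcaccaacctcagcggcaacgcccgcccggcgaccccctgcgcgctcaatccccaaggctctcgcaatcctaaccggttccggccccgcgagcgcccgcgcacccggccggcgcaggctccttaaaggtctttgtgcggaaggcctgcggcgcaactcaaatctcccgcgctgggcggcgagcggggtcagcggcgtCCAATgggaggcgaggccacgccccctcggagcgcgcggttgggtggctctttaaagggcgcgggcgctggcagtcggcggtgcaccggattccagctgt
The other genes with E2F letters were Orc1, Cdc6, Cdt1, Pola1, Pold1, Pole2, Rfc3, Lig1 and E2f2. A match describes the letters of the window and is not evidence of binding.

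FPKM counts sequenced fragments per length of transcript and per mapped fragments of the library. Over the genes that reached 1 FPKM in a library, its median separated 2 sets of 13 libraries, a higher-median set at 12.97 to 13.85 and a lower-median set at 7.58 to 9.81. DN1eP libraries all lay in the lower-median set with NKT-1 libraries 3 to 5, NKT-2 libraries 5 to 7 and NKT-3 libraries 4 to 6, and DN1eP-NKT libraries all lay in the higher-median set with the other thymic libraries. In thymic cells 17 of the 49 members were higher and 15 lower in the higher-median set than in the lower-median set, against 52.3% of all tested genes higher and 20.3% lower. Cdt1, the licensing factor, was the furthest above (log2 difference 2.52 ± 0.16 SE) and Rfc4, a loader subunit, the furthest below (-2.10 ± 0.16), so each precursor or culture group is compared with thymic libraries of its own set.

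Libraries also carried RNA of other cells. The 10 stromal markers summed to 78.1 to 420 FPKM in DN1eP-NKT libraries (6 to 8 of 10 at 1 FPKM or more), to 1.51 to 34.8 in DN1eP libraries and to at most 2.49 in thymic NKT libraries. DN1eP library 1 held 371 FPKM of 6 myeloid markers, against 21.4 to 33.0 in the other 3 DN1eP libraries. NKT-2 library 6 held 135 FPKM of 5 B cell markers and 61.4 FPKM of myeloid markers. NKT-3 library 5 held 326 FPKM of 4 erythroid markers, 41.9 FPKM of B cell markers and 25.4 FPKM of myeloid markers. In DN1eP libraries B cell markers summed to 20.8 to 48.3 FPKM, mostly Cd79b (20.8 to 46.0 FPKM). Thymic NKT libraries other than NKT-2 library 6 and NKT-3 library 5 held at most 10.6 FPKM of them. T cell markers summed to 1164 to 6261 FPKM over 6 genes. In DN1eP-NKT libraries they summed to 1164 to 1677 FPKM, below the 1738 to 3012 FPKM of the thymic libraries of the set. Klrb1c, which encodes NK1.1, was at 440 to 563 FPKM in NKT-3 libraries against 4.20 to 8.47 in NKT-1 libraries. Klrb1c was at 11.3 to 56.8 FPKM in DN1eP-NKT and 170 to 495 FPKM in DN1eP libraries. The 5 NKT markers summed to 568.4 to 597.6 FPKM in DN1eP-NKT libraries, against 274 to 328 in NKT-1, 354 to 505 in NKT-2 and 1394 to 1512 in NKT-3 libraries of the set. They summed to 522 to 1041 FPKM in DN1eP libraries, against 116 to 195, 158 to 234 and 877 to 1305 in the same stages of its set. Il2rb made up most of the DN1eP-NKT sum, at 470 to 530 FPKM. In that set it was at 121 and 126 in NKT-1, 175 to 227 in NKT-2 and 740 to 864 in NKT-3 libraries. Slamf6 was at 0 to 0.329 FPKM in DN1eP-NKT libraries. In the same thymic libraries it was at 58.3 and 84.6 in NKT-1, 44.7 to 89.3 in NKT-2 and 2.45 to 5.36 in NKT-3. Among the 5 NKT markers Zbtb16, the transcription factor PLZF of the NKT lineage, was at 4.51 to 6.9 FPKM in DN1eP-NKT libraries. Thymic libraries of the higher-median set held 80.7 and 113 FPKM in NKT-1, 47.1 to 75.95 in NKT-2 and 12.8 to 21.8 in NKT-3. Zbtb16 was at 1.75 to 6.77 FPKM in DN1eP libraries. Thymic libraries of the lower-median set held 9.77 to 16.6 FPKM in NKT-1, 5.51 to 10.96 in NKT-2 and 0.956 to 3.52 in NKT-3. The 7 markers of double-positive and early thymocytes summed to 4.62 to 12.4 FPKM in DN1eP-NKT, 13.03 to 27.2 in DN1eP and 15.01 to 91.0 in thymic NKT libraries. Rag1 and Rag2 among them reached at most 1.14 FPKM, while Dntt was at up to 12.6 FPKM in DN1eP libraries and at 15.8 FPKM in NKT-3 library 5. The part of these markers in the results was not tested. With NKT-2 library 6 and NKT-3 library 5 both left out, 39 members were lower in DN1eP than in NKT-1, 31 lower than in NKT-2, and 9 higher and 2 lower than in NKT-3, and 1, 2 and 42 members passed for DN1eP-NKT against the 3 stages. In the same setting 0 members passed between NKT-2 and NKT-1, 42 were lower in NKT-3 than in NKT-2, 46 lower than in NKT-1, and 32 were higher in DN1eP-NKT than in DN1eP. No share of all tested genes is given for this setting. In the fit with all libraries 18.9% and 11.6% of tested genes were lower in DN1eP than in NKT-1 and NKT-2. Against NKT-3 16.2% were higher and 4.42% lower. Shares for the other comparisons of that fit follow with each result.

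**Figure D1:**
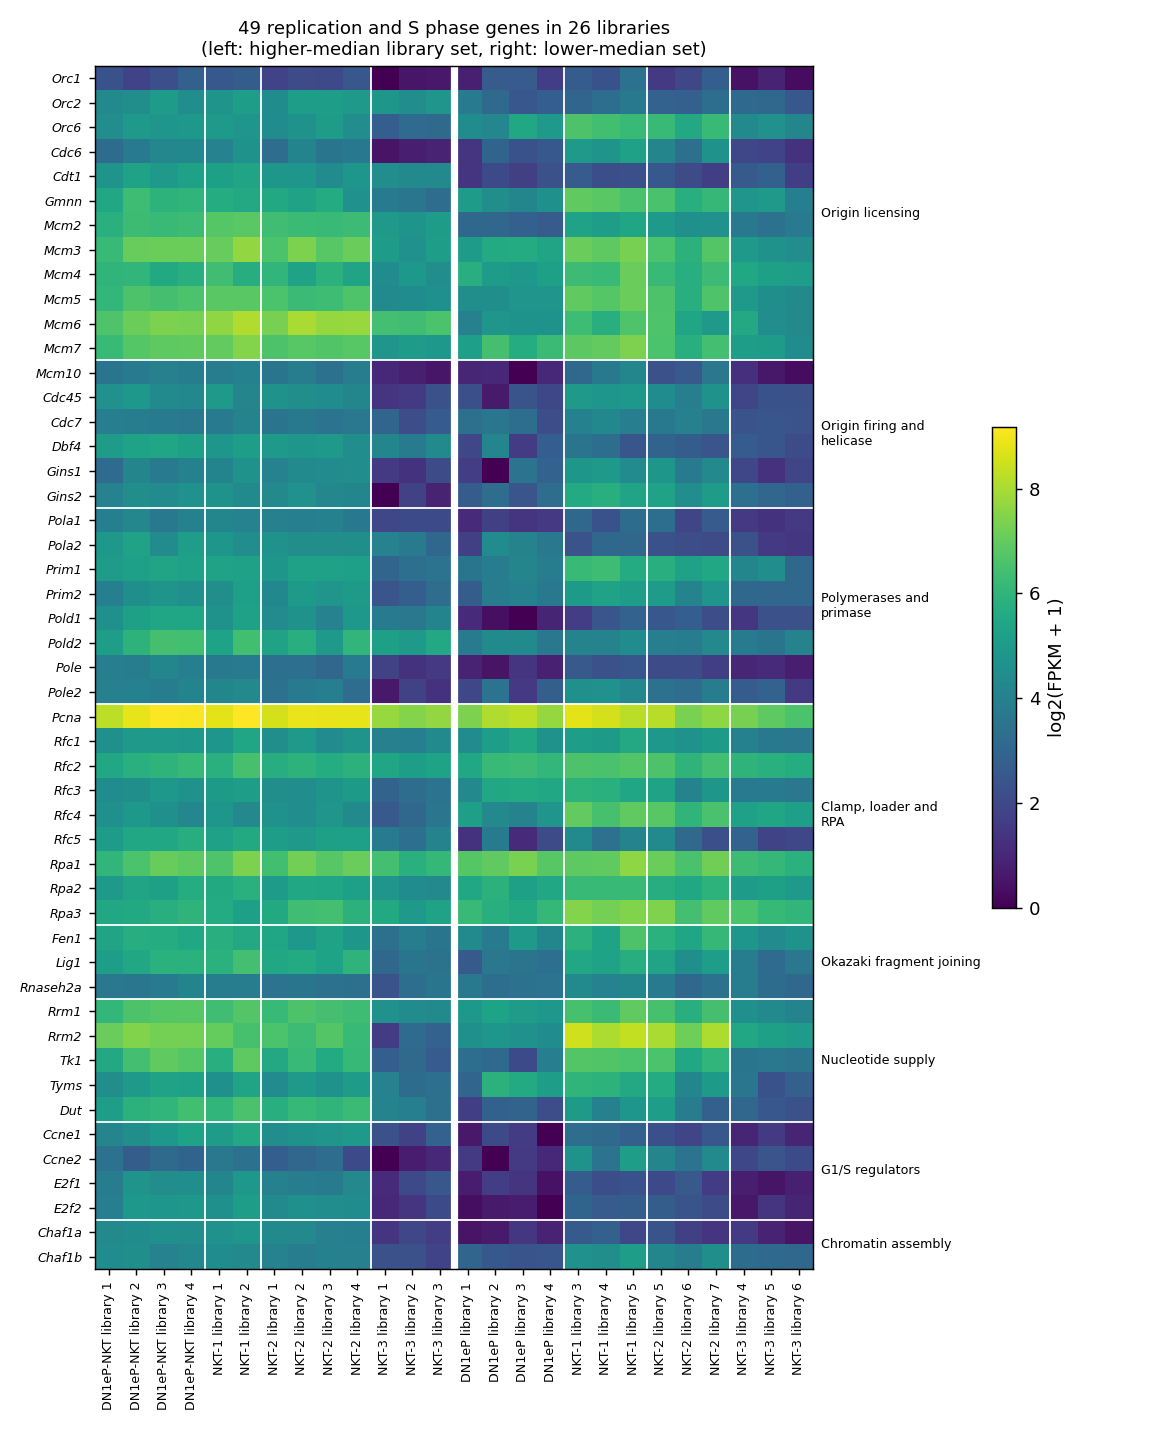
Heat map of log2(FPKM + 1) for the 49 members (rows, grouped by role) in 26 libraries (columns), with the higher-median library set on the left of the thick line and the lower-median set on the right. DN1eP-NKT, NKT-1 and NKT-2 columns are brighter than DN1eP and NKT-3 columns over most rows.

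The median FPKM over the 49 members averaged 32.0 ± 5.68 in DN1eP-NKT libraries (SD, n = 4) and 10.1 ± 2.16 in DN1eP libraries (n = 4). In the lower-median set it averaged 33.1 ± 3.30 in NKT-1, 23.9 ± 7.30 in NKT-2 and 8.71 ± 1.89 in NKT-3 libraries (n = 3 each), and in the higher-median set 33.6 ± 4.45 (n = 2), 27.2 ± 1.999 (n = 4) and 8.87 ± 1.44 (n = 3). The DN1eP and NKT-3 averages lay at 8.71 to 10.1 FPKM, and the DN1eP-NKT average lay among those of NKT-1 and NKT-2. The members held 0.375% to 0.394% of the summed FPKM in DN1eP-NKT libraries, 0.113% to 0.161% in DN1eP libraries, 0.313% to 0.461% in NKT-1, 0.253% to 0.362% in NKT-2 and 0.112% to 0.139% in NKT-3 libraries. In bulk RNA, fewer cells in S phase and less of these RNAs per cell cannot be told apart.

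**Figure D2:**
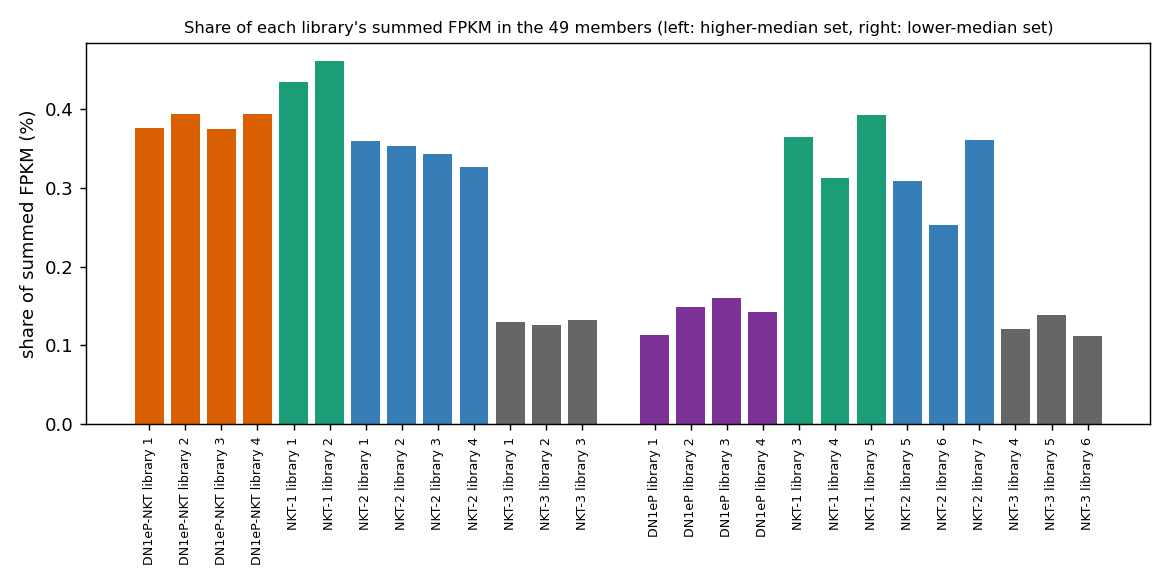
Share of each library's summed FPKM (vertical axis, percent) in the 49 members, 1 bar per library, with the higher-median set on the left and the lower-median set on the right. Every DN1eP-NKT, NKT-1 and NKT-2 bar lies at 0.253% or above, and DN1eP and NKT-3 bars lie between 0.112% and 0.161%.

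DN1eP cells held less replication RNA than NKT cells of stage 1. Of the 49 members 39 were lower in DN1eP than in NKT-1 cells and none higher, by limma at a Benjamini-Hochberg adjusted p under 0.05 over all tested genes, against 18.9% of tested genes lower and 14.7% higher. The median log2 difference of the members was -1.61, and that of all tested genes -0.07. In 37 members the DN1eP libraries all lay below the NKT-1 libraries, which was so for 19.4% of tested genes, and in none did they all lie above, which was so for 12.3%. The differences covered every role, with 9 of 12 licensing genes lower, 5 of 6 genes for origin firing, 6 of 8 for polymerases and primase, 6 of 9 for clamp, loader and RPA, all 3 for joining Okazaki fragments, 4 of 5 for nucleotide supply, all 4 G1/S regulators and both chromatin assembly genes.

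The largest single differences from NKT-1 were those of Rrm2 and Tk1, which serve nucleotide supply, while the median over a role was larger for origin firing (-2.70 against NKT-1 and -2.03 against NKT-2) than for nucleotide supply (-2.21 and -1.52). Rrm2, the small and cell cycle-regulated subunit of ribonucleotide reductase (mm9 chr12:25393119-25399011), was at 23.1, 27.2, 24.1 and 21.3 FPKM in the 4 DN1eP libraries, against 363, 267 and 320 FPKM in NKT-1 and 259, 142 and 263 FPKM in NKT-2 libraries of the same set. The groups were far from overlapping, and the log2 differences were -3.67 ± 0.27 against NKT-1 (SE, limma adjusted p 2.2e-10) and -3.11 ± 0.27 against NKT-2 (adjusted p 6.1e-09). Tk1, thymidine kinase of the salvage pathway, was at 9.03, 7.81, 3.14 and 14.1 FPKM in DN1eP libraries, against 105, 102 and 95.7 FPKM in NKT-1 and 93.9, 43.0 and 65.0 FPKM in NKT-2 libraries. Its differences were -3.56 ± 0.36 and -2.92 ± 0.36, and no DN1eP library reached a thymic library of these stages. Rrm1, the large reductase subunit, and Dut, which removes dUTP, were lower than in NKT-1 by less (-1.53 ± 0.21 and -2.21 ± 0.40).

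Tyms, thymidylate synthase, was the exception among the nucleotide genes. It was at 6.91, 58.1, 47.4 and 33.8 FPKM in DN1eP libraries, against 63.8, 59.8 and 45.3 FPKM in NKT-1 and 49.6, 17.6 and 31.1 FPKM in NKT-2 libraries. DN1eP library 1 lay below every one of these and the other 3 between the lowest and highest of them, and neither difference passed the test (-0.93 ± 0.49, adjusted p 0.15, and -0.07 ± 0.49, adjusted p 0.94).

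The licensing genes were lower with few exceptions. Mcm2, a subunit of the helicase ring (mm9 chr6:88833468-88848774), was at 7.27, 7.18, 6.07 and 5.19 FPKM in DN1eP libraries, against 37.6, 34.7 and 42.5 FPKM in NKT-1 and 30.6, 23.3 and 23.9 FPKM in NKT-2 libraries. Its differences were -2.41 ± 0.16 against NKT-1 and -1.86 ± 0.16 against NKT-2 (adjusted p 6.1e-11 and 8.4e-09), and DN1eP libraries lay below all others of the set. The other ring subunits differed less from NKT-1, between -2.25 ± 0.20 for Mcm5 and -1.16 ± 0.26 for Mcm7. Mcm7 against NKT-2 did not pass (-0.36 ± 0.26, adjusted p 0.33), with 35.5, 88.0, 50.1 and 75.6 FPKM in DN1eP against 94.0, 53.0 and 86.2 FPKM in NKT-2 libraries. Cdc6, the loading factor, was lower than in NKT-1 by -2.67 ± 0.33 and Gmnn, which encodes the licensing inhibitor geminin, by -2.16 ± 0.26. Orc1, Orc2 and Cdt1 did not pass against NKT-1 (-0.89 ± 0.37, -0.31 ± 0.26 and -0.49 ± 0.25) or against NKT-2.

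Among genes for origin firing, Cdc45, a part of the active helicase, was at 3.76, 0.583, 4.25 and 2.96 FPKM in DN1eP libraries against 30.3, 27.0 and 28.5 FPKM in NKT-1 libraries (-3.06 ± 0.31, adjusted p 4.8e-08) and against 21.3, 14.4 and 24.3 FPKM in NKT-2 libraries (-2.54 ± 0.31, adjusted p 1.3e-06). Mcm10, Gins1 and Gins2, which help to assemble the helicase, were lower than in NKT-1 by -2.88 ± 0.32, -2.73 ± 0.51 and -2.67 ± 0.30. Dbf4 did not pass (-0.48 ± 0.38, adjusted p 0.36), with 17.5 FPKM in DN1eP library 2 and 2.04 to 5.73 FPKM in the other 3. Ccne2, a cyclin E gene, was at 1.93, 0, 1.95 and 1.10 FPKM in DN1eP libraries against 25.3, 10.4 and 33.8 FPKM in NKT-1 and 16.9, 10.3 and 19.97 FPKM in NKT-2 libraries. Its differences were -3.40 ± 0.38 and -2.97 ± 0.38 on the log2(FPKM + 1) scale, which understates the change of genes this low. E2f1, E2f2 and Ccne1 were lower too, by -1.33 ± 0.32, -2.34 ± 0.27 and -2.02 ± 0.36 against NKT-1.

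By the median over a role, the genes for clamp, loader and RPA differed least (-0.68 against NKT-1 and -0.18 against NKT-2), though single members differed more. Pcna, the clamp itself and the member with the highest mean over all libraries (323 FPKM), was at 164, 271, 308 and 211 FPKM in DN1eP libraries, against 442, 386 and 302 FPKM in NKT-1 and 295, 159 and 193 FPKM in NKT-2 libraries. DN1eP library 3 overlapped the NKT-1 range, and the difference passed the test against NKT-1 (-0.68 ± 0.25, adjusted p 0.035) but not against NKT-2 (0.15 ± 0.25, adjusted p 0.70). Against NKT-1 it no longer passed in 10 of 20 alternative settings (-0.86 to -0.42, limma adjusted p up to 0.156), among them those without DN1eP library 1 or 4 or NKT-1 library 3 or 4. Rpa1, which binds single-stranded DNA, and Rfc1 and Rfc3 of the loader did not pass against either stage, while Rfc4 was lower by -2.21 ± 0.25 against NKT-1. Pola2, the regulatory subunit of polymerase α, was the one member higher than in NKT-2 cells, at 2.31, 20.3, 16.2 and 11.9 FPKM in DN1eP against 3.81, 3.48 and 3.40 FPKM in NKT-2 libraries (1.29 ± 0.41, adjusted p 0.018). DN1eP library 1 lay below all 3 NKT-2 libraries and the other 3 DN1eP libraries above them, and without library 1 the difference was 1.88. It no longer passed in 7 of 20 alternative settings, which gave -0.0782 to 1.29. Pola2 also differed between the library sets. In NKT-1 and NKT-2 libraries it was at 3.40 to 7.33 FPKM in the lower-median and 21.7 to 27.0 FPKM in the higher-median set. DN1eP libraries 2 to 4 lay between these ranges.

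In all, 33 of 49 members were lower in DN1eP than in NKT-2 cells, against 11.6% of tested genes, and Pola2 alone was higher, against 17.9%. The libraries did not overlap for 27 members that were lower in DN1eP (10.2% of tested genes) and for none that was higher (14.3%). The members' median difference was -1.12 and that of all tested genes 0.08. By role 8 of 12 licensing genes, 5 of 6 for origin firing, 6 of 8 for polymerases and primase, 2 of 9 for clamp, loader and RPA, 2 of 3 for Okazaki fragments, 4 of 5 for nucleotide supply, all 4 G1/S regulators and both chromatin assembly genes were lower. A fit on only the DN1eP and NKT-2 libraries called 21 lower. Without DN1eP library 1, the count of lower members was 37 against NKT-1 and 32 against NKT-2.

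**Figure D3:**
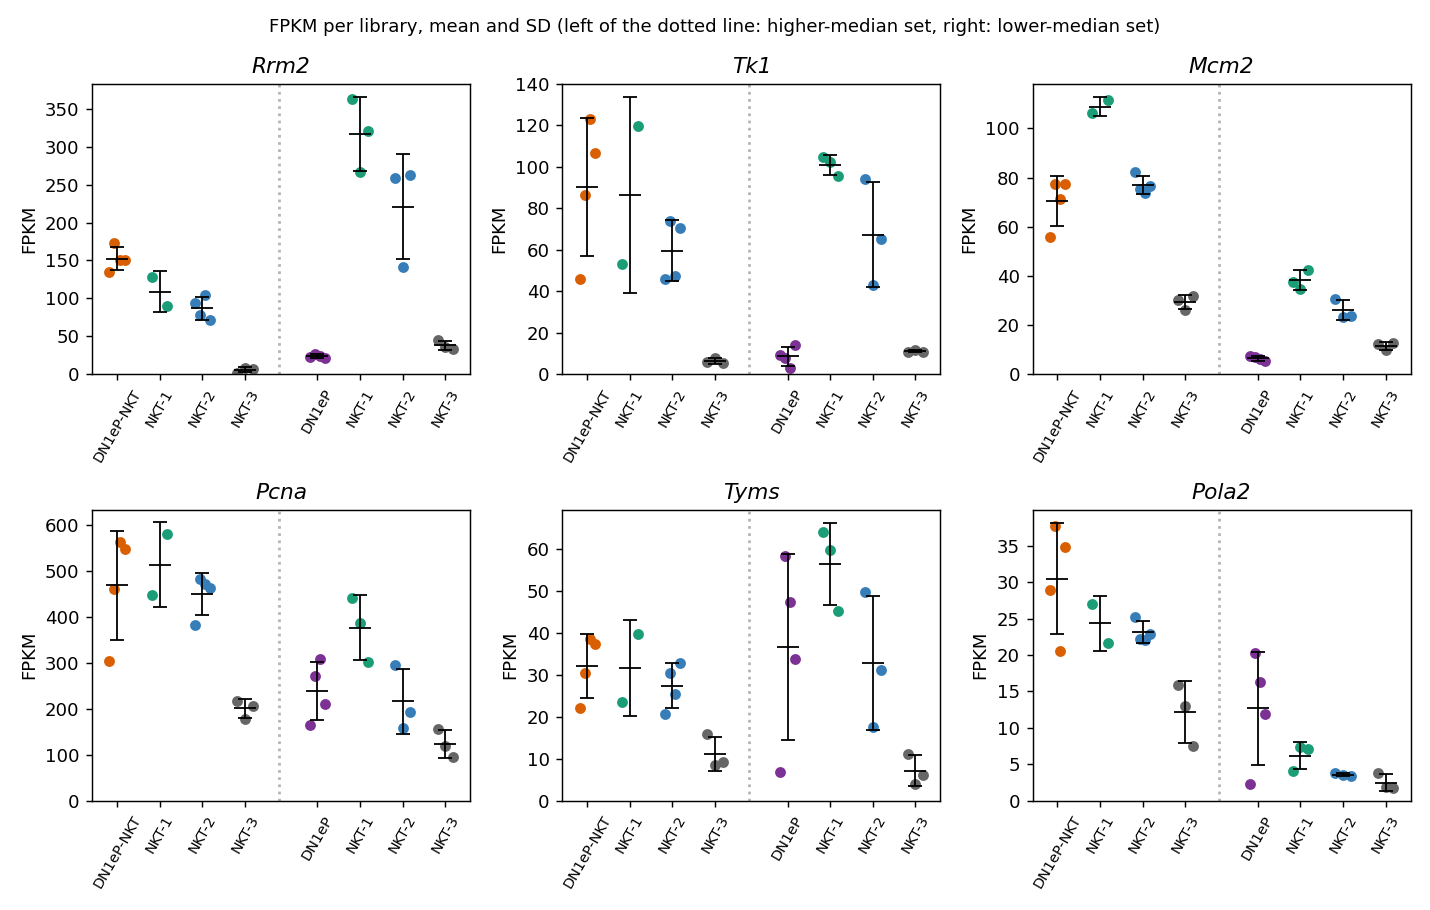
FPKM per library (points) with mean and SD (bars) for Rrm2, Tk1, Mcm2, Pcna, Tyms and Pola2, with DN1eP-NKT and the thymic libraries of its set left of the dotted line and DN1eP and those of its set right of it. Rrm2 points span 135 to 173 FPKM for DN1eP-NKT and 21.3 to 27.2 FPKM for DN1eP, and DN1eP library 1 is the lowest DN1eP point for Pcna, Tyms and Pola2.

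Against stage 3 the DN1eP cells were near in level. Of the 49 members 10 were higher and 3 lower in DN1eP than in NKT-3 cells, and 36 did not pass the test, against 16.2% of tested genes higher and 4.42% lower. The median difference was 0.05, below the 0.16 of all tested genes. The 10 higher members were Tyms, Pola2, Rfc3, Orc1, Rfc1, Mcm7, Pcna, Rpa1, Cdc7 and Rrm1, 4 of them of the clamp, loader and RPA group. Of these, Cdc7 no longer passed without DN1eP library 1, 2 or 3, or without NKT-3 library 4, 5 or 6. Rrm1 no longer passed without DN1eP library 2 or 3, or without NKT-3 library 5 or 6. Both were also lost after quantile normalization and after upper-quartile scaling. The 3 lower were Pold1, Ccne2 and Mcm2, of which Ccne2 (-1.11) no longer passed in 11 of 20 alternative settings (-2.08 to -0.32, limma adjusted p 0.0593 to 0.646). All DN1eP libraries lay above all NKT-3 libraries in 7 members (14.4% of tested genes) and below them in 6 (5.55%). The split moved with the settings, for which no share of all tested genes is given. It was 12 higher and 5 lower without DN1eP library 1, 4 higher and 3 lower without NKT-3 library 6, and 3 higher and 1 lower with only these libraries in the fit. After quantile normalization it was 7 higher and 8 lower, with a median of -0.20 for the members and -0.05 for all tested genes, and after upper-quartile scaling 8 higher and 8 lower, with medians of -0.25 and -0.06.

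Tyms showed the largest of these differences, at 6.91, 58.1, 47.4 and 33.8 FPKM in DN1eP libraries against 11.1, 3.96 and 6.11 FPKM in NKT-3 libraries (1.98 ± 0.49, adjusted p 0.0062). DN1eP library 1 lay among the NKT-3 libraries and the other 3 far above them. Pola2 followed the same order, with 2.31, 20.3, 16.2 and 11.9 FPKM in DN1eP against 3.81, 1.92 and 1.71 FPKM in NKT-3 libraries (1.73 ± 0.41, adjusted p 0.0038). Rfc3, a loader subunit, was at 18.9, 44.1, 48.0 and 43.2 FPKM in DN1eP and 12.8, 13.3 and 11.4 FPKM in NKT-3 libraries, without overlap (1.47 ± 0.27, adjusted p 0.00069).

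Mcm2 went the other way, at 7.27, 7.18, 6.07 and 5.19 FPKM in DN1eP against 12.1, 9.67 and 12.6 FPKM in NKT-3 libraries, and all DN1eP libraries lay below the NKT-3 libraries (-0.75 ± 0.16, adjusted p 0.0024). Pold1, the catalytic subunit of polymerase δ, was at 1.18, 0.283, 0 and 0.956 FPKM in DN1eP against 1.73, 3.87 and 3.84 FPKM in NKT-3 libraries (-1.39 ± 0.31, adjusted p 0.0028). Pcna was higher in DN1eP, by 0.93 ± 0.25 against 156, 119 and 95.8 FPKM in NKT-3 libraries (adjusted p 0.0089). Rrm2 was at 44.9, 36.0 and 33.1 FPKM in NKT-3 libraries, all above the DN1eP libraries, and its difference of -0.64 ± 0.27 did not pass (adjusted p 0.094). Ring subunits were unequal in DN1eP cells, where the highest of Mcm2 to Mcm7 had 7.53 to 14.6 times the FPKM of the lowest in the same library, against 2.76 to 3.73 times in NKT-3 libraries of the set. Mcm2 was the lowest subunit in all 13 libraries of the lower-median set. In the higher-median set the lowest was Mcm4 or Mcm5 in every thymic library, and Mcm2 only in DN1eP-NKT library 1. The order of subunits thus went with the library set, and FPKM of different subunits does not give their relative amounts. The ratios are therefore set beside those of the same set only.

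The DN1eP libraries were not measured with equal precision. The deposited confidence interval of a gene of 20 to 100 FPKM reached, in the median, 18.8% to 23.8% of the value to either side in DN1eP libraries 2 to 4, 6.24% in DN1eP library 1 and 5.53% to 6.31% in the thymic libraries of the set. Low members of DN1eP libraries 2 to 4, among them Gins1, Ccne2, Mcm10, Pold1, Ccne1 and E2f2, which were each listed at 0 in 1 of them, are least certain. In the other set the interval reached 7.01% in DN1eP-NKT library 1 and 15.9% to 21.8% in libraries 2 to 4, against 6.88% and 21.4% in the 2 NKT-1 libraries, 7.61% in NKT-2 library 1, 15.8% to 21.9% in NKT-2 libraries 2 to 4 and 15.3% to 21.8% in NKT-3 libraries.

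**Figure D4:**
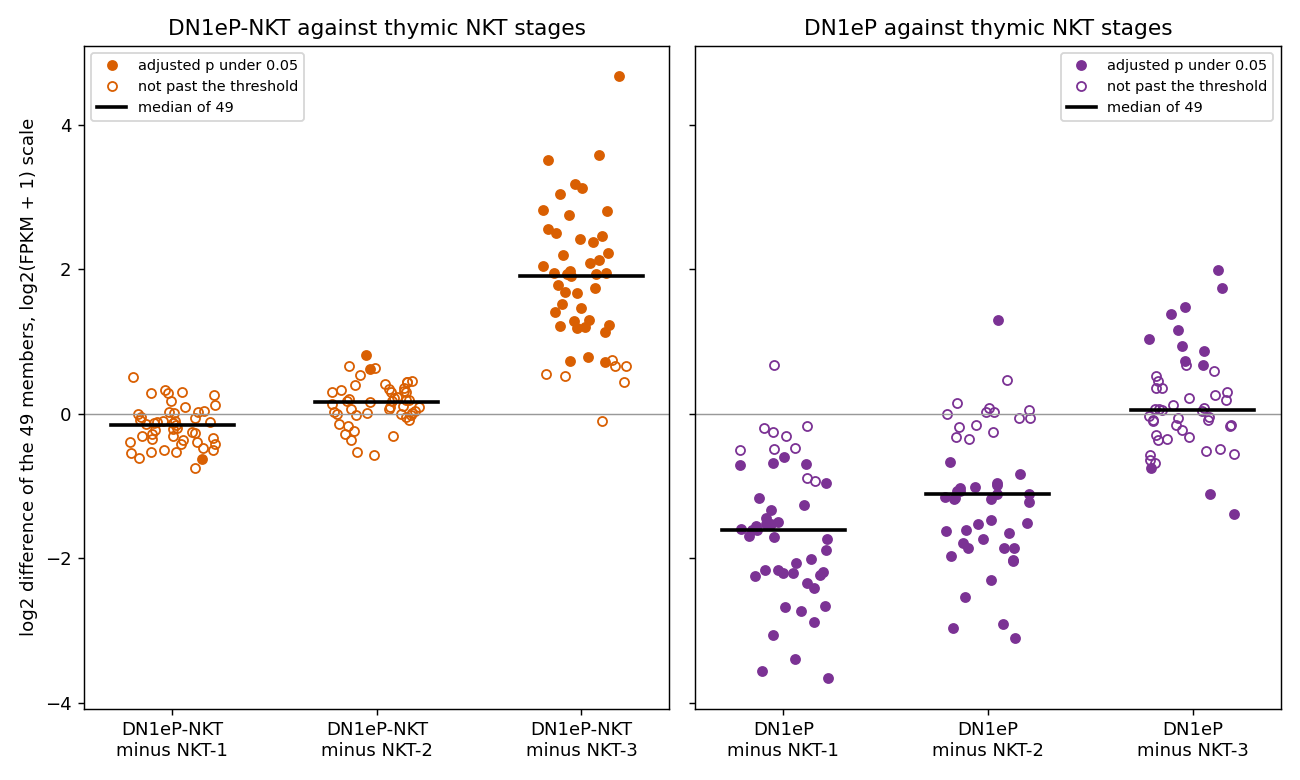
Log2 differences of the 49 members on the log2(FPKM + 1) scale, for DN1eP-NKT (left panel) and DN1eP cells (right panel) minus each thymic NKT stage, with filled points past the test, open points not past it and a black line at the median. The medians against stages 1, 2 and 3 are -0.16, 0.16 and 1.91 for DN1eP-NKT and -1.61, -1.12 and 0.05 for DN1eP cells.

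After 10 days in culture the replication genes of DN1eP-NKT cells lay near those of NKT-1 and NKT-2 cells. Against NKT-1, Mcm2 alone was lower of the 49 members and none was higher, against 6.76% of tested genes lower and 8.49% higher. The median difference was -0.16, the members ranged from -0.75 to 0.50, and their standard errors from 0.19 to 0.57, so for single members differences of moderate size were not detectable with 4 and 2 libraries. The libraries did not overlap in 2 members that were higher in DN1eP-NKT (17.3% of tested genes) and 7 that were lower (19.7%). Mcm2 was at 55.7, 77.3, 71.3 and 77.5 FPKM in DN1eP-NKT libraries against 106 and 112 FPKM in the 2 NKT-1 libraries of the set, without overlap (-0.63 ± 0.19, adjusted p 0.019). It did not pass without DN1eP-NKT library 1 or without either NKT-1 library, and no member then did.

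Against NKT-2, Rrm2 and Pole were higher in DN1eP-NKT cells and no member was lower, against 11.1% of tested genes higher and 7.97% lower. The median difference was 0.16, with a range from -0.58 to 0.82, and the libraries did not overlap in 4 members that were higher (13.8% of tested genes) and in none that was lower (11%). Rrm2 was at 135, 173, 151 and 151 FPKM in DN1eP-NKT libraries against 94.1, 77.7, 104 and 71.5 FPKM in NKT-2 libraries (0.82 ± 0.25, adjusted p 0.021) and against 128 and 89.7 FPKM in NKT-1 libraries (0.50 ± 0.31, adjusted p 0.34). Every DN1eP-NKT library lay above both thymic stages. Pole, the catalytic subunit of polymerase ε, was at 14.4, 13.8, 17.4 and 14.6 FPKM in DN1eP-NKT against 9.11, 9.26, 7.26 and 12.99 FPKM in NKT-2 libraries (0.61 ± 0.20, adjusted p 0.035), again without overlap. Without DN1eP-NKT library 2 or NKT-2 library 2 neither passed, and without DN1eP-NKT library 3 or 4 or NKT-2 library 1 or 4 a single member did. Pole no longer passed in 10 of 21 alternative settings and Rrm2 in 4.

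Against stage 3 the contrast was wide. Of the 49 members 42 were higher in DN1eP-NKT than in NKT-3 cells and none lower, against 15% of tested genes higher and 8.39% lower, and in 45 the DN1eP-NKT libraries all lay above the NKT-3 libraries, against 20.8%, and in none below, against 16.2%. The median difference was 1.91, and that of all tested genes 0.05. The 7 that did not pass were Orc2, Cdt1, Mcm6, Pold2, Rfc2, Rpa1 and Rpa3. All 6 genes for origin firing, all 5 for nucleotide supply, all 3 for Okazaki fragments, all 4 G1/S regulators and both chromatin assembly genes were higher, with 9 of 12 licensing genes, 7 of 8 for polymerases and primase and 6 of 9 for clamp, loader and RPA.

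Rrm2 was again first, at 135, 173, 151 and 151 FPKM in DN1eP-NKT libraries against 2.11, 8.32 and 6.45 FPKM in NKT-3 libraries (4.67 ± 0.27, adjusted p 2.7e-12). Tk1 was at 45.8, 86.2, 123 and 106 FPKM in DN1eP-NKT against 5.73, 7.94 and 5.15 FPKM in NKT-3 libraries (3.58 ± 0.36, adjusted p 3.0e-08). In both genes the groups were far apart. Gins2 was higher by 3.51 ± 0.30 and Cdc6 by 3.18 ± 0.33, and E2f2, a transcriptional activator of S phase genes, by 3.12 ± 0.27. Mcm2, at 30.3, 26.2 and 31.7 FPKM in NKT-3 libraries, was higher in DN1eP-NKT cells by 1.23 ± 0.16, and Pcna, at 304, 459, 563 and 547 FPKM in DN1eP-NKT against 217, 178 and 207 FPKM in NKT-3 libraries, by 1.18 ± 0.25.

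The DN1eP-NKT library with the least stromal RNA, library 1 (78.1 FPKM of stromal markers, against 284 to 420 in libraries 2 to 4), also had the lowest median over the members, 24.2 FPKM against 31.7 to 36.7. Its share of summed FPKM in the members was 0.376%, against 0.375% to 0.394%. Stromal markers Dcn and Lum were at or below 0.231 FPKM in all 4. OP9 cells divide too and carry the same genes, and how much of the members' RNA came from them was not tested. Without library 1, 46 members were higher than in NKT-3.

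DN1eP-NKT and DN1eP libraries never shared a library set, so their direct difference cannot be told apart from the set. Each group was therefore set against the mean of the 3 thymic stages of its own set and the 2 results were subtracted. On this scale 33 of 49 members were higher in DN1eP-NKT than in DN1eP cells and none lower, against 15% of tested genes higher and 16.6% lower, with a median of 1.61 against -0.04 for all tested genes. With the set ignored, 36 were higher and none lower. This comparison uses the same libraries as those above and is not separate support for them.

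Rrm2 was higher in DN1eP-NKT by 4.47 ± 0.30 (adjusted p 1.4e-10), Tk1 by 3.73 ± 0.40, Ccne2 by 3.27 ± 0.43 and Cdc45 by 2.96 ± 0.35. Mcm2 averaged 70.5 ± 10.2 FPKM in DN1eP-NKT and 6.43 ± 0.993 FPKM in DN1eP libraries (SD, n = 4 each), and was higher by 1.82 ± 0.18 on the set-adjusted scale. Pcna averaged 468 ± 119 FPKM in DN1eP-NKT and 238 ± 64.0 FPKM in DN1eP libraries and did not pass once set-adjusted (0.22 ± 0.28, adjusted p 0.59). Among the 16 that did not pass were 6 of the 9 clamp, loader and RPA genes, and Orc1, Orc2, Cdt1, Mcm6 and Mcm7 of the licensing genes.

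Within the thymus the large step lay between stages 2 and 3. Between stages 1 and 2 only Mcm2 passed, lower in NKT-2 than in NKT-1 by -0.52 ± 0.13 (adjusted p 0.045), against 0.437% of tested genes lower and 0.566% higher. The median difference was -0.41, against -0.12 for all tested genes, and 46 of 49 members had a negative difference in each library set. Within the lower-median or the higher-median set alone no member passed, where 0.18% and 0.0943% of tested genes were lower. At an unadjusted p under 0.05, 21 members were lower in NKT-2 and none higher, against 7.78% of tested genes lower and 2.78% higher. Mcm2 was at 82.3, 75.4, 73.9 and 76.6 FPKM in NKT-2 against 106 and 112 FPKM in NKT-1 libraries of the higher-median set, and at 30.6, 23.3 and 23.9 FPKM in NKT-2 against 37.6, 34.7 and 42.5 FPKM in NKT-1 libraries of the lower-median set, without overlap in either. It did not pass when NKT-2 library 6, with its B cell and myeloid RNA, was left out, nor when any other library of these stages but NKT-2 library 5 was.

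Stage 3 stood well below stage 2. Of the 49 members 42 were lower in NKT-3 than in NKT-2 and none higher, against 18.4% of tested genes lower and 10.6% higher, and the median difference was -1.59 against -0.06 for all tested genes. The 7 that did not pass were Orc2, Cdt1, Dbf4, Pola2, Pold1, Pold2 and Rnaseh2a. Rrm2 differed by -3.16 ± 0.20 (adjusted p 3.8e-12), Tk1 by -2.73 ± 0.26, Cdc6 by -2.68 ± 0.24 and Gins2 by -2.66 ± 0.22. Mcm2 differed by -1.24 ± 0.12 and Pcna by -0.97 ± 0.18. Without NKT-2 library 6 or without NKT-3 library 5, the same 42 genes were lower.

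Against stage 1, 46 of 49 members were lower in NKT-3 and none higher, against 26.6% of tested genes lower and 10.6% higher, with a median of -1.93 against -0.16. Orc2, Cdt1 and Pold2 did not pass. Orc2 belongs to the part of the origin recognition complex that is known to be present through the whole cell cycle, and was at 28.3, 21.4 and 26.3 FPKM in NKT-3 against 26.1 and 34.0 FPKM in NKT-1 libraries of the higher-median set, with overlap. Rrm2 differed by -3.60 ± 0.22 (adjusted p 1.7e-12), Cdc6 by -3.47 ± 0.26, Tk1 by -3.28 ± 0.29 and Gins2 by -3.06 ± 0.24. Cdc6 was at 2.85, 2.56 and 1.56 FPKM in NKT-3 against 29.3, 25.82 and 36.9 FPKM in NKT-1 libraries of the lower-median set, and at 0.386, 0.712 and 0.866 FPKM in NKT-3 against 15.9 and 25.5 FPKM in NKT-1 libraries of the higher-median set, without overlap in either. The smallest differences that passed were those of Rpa3 (-0.64 ± 0.19), Pold1 (-0.73 ± 0.25), Dbf4 (-0.77 ± 0.31) and Rnaseh2a (-0.80 ± 0.20). Dbf4 no longer passed when any single library of these stages but NKT-1 library 5 or NKT-3 library 4 was left out. Pold1 no longer passed without NKT-1 library 2 or 5 or NKT-3 library 2 or 4, and Rpa3 without NKT-1 library 1.

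The 2 library sets hold different libraries and give the stage 3 difference separately. Against stage 1, 43 members were lower in the lower-median set and 43 in the higher-median set, where 20.1% and 14% of tested genes were lower, and 41 members were lower in both, as were 9.86% of tested genes. Against stage 2 the counts were 34 and 39, where 7.89% and 12.9% of tested genes were lower, and 32 members were lower in both, as were 6.03% of tested genes. In the test of the difference between the sets itself, no member passed for any of the 3 stage comparisons by limma, where 0%, 0.326% and 0.317% of tested genes passed, and 1, 9 and 7 members had an unadjusted p under 0.05 for stage 2 against 1, 3 against 2 and 3 against 1, against 3.72%, 5.62% and 8.68% of tested genes. For stage 3 against 2, 45 of 49 members had a more negative difference in the higher-median set, among them all 9. The median gap between the sets was -0.36 for the members and 0.04 for all tested genes. For stage 3 against 1, 30 members were more negative and 19 less so in the higher-median set, with medians of -0.09 and 0.16. Tyms differed by -2.91 in the lower-median and -1.42 in the higher-median set, and Rrm2 by -3.03 and -4.17, between stages 3 and 1.

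**Figure D5:**
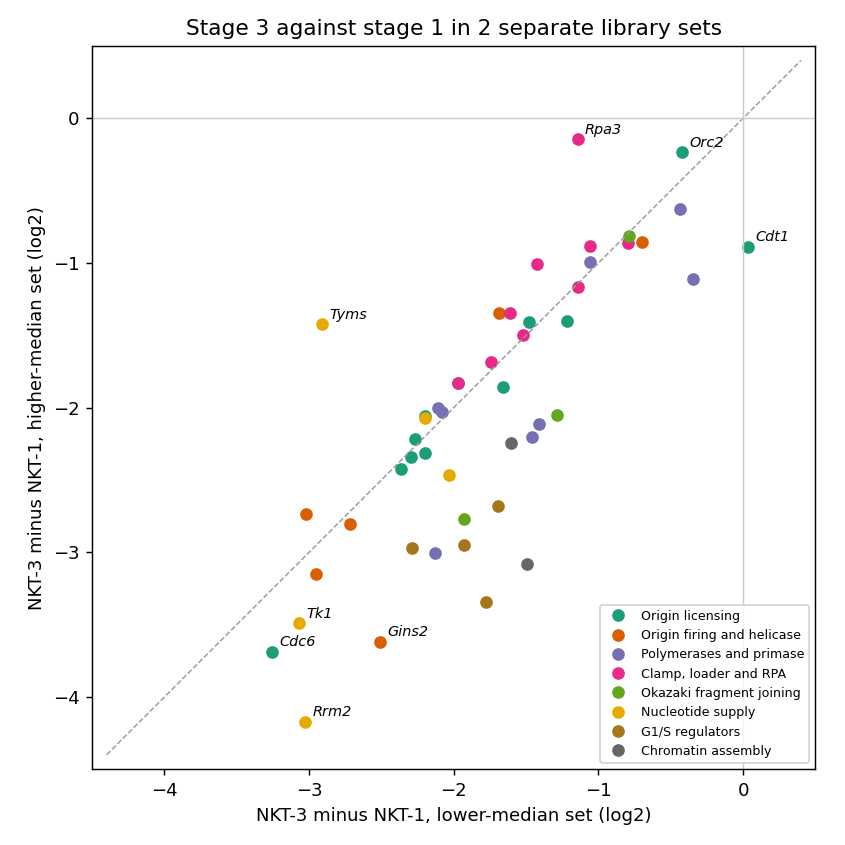
NKT-3 minus NKT-1 log2 difference of each of the 49 members in the lower-median library set (horizontal axis) and the higher-median set (vertical axis), coloured by role, with the line of equal values dashed. In 48 of 49 members the difference is negative in both sets, and Cdt1 (0.03 and -0.89) is the exception.

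In each of 3 comparisons the 13 members with E2F letters in a promoter window had a larger absolute median than the 28 with a window but none. Whether these gaps exceed the spread of the members was not tested. Between NKT-3 and NKT-1 the median differences were -2.25 and -1.74, with ranges from -3.47 to -0.43 and from -3.60 to -0.33. Between DN1eP-NKT and NKT-3 they were 1.93 and 1.60, and between DN1eP and NKT-1 they were -1.71 and -1.56. These are descriptions of overlapping ranges, and Rrm2, with no such letters in its window, lay at the end of each range.

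Lists of G2 and mitosis, of other replication genes and of G1/S control were read in the same fit. Of 10 genes of G2 and mitosis, all 10 were lower in DN1eP than in NKT-1 and NKT-2 cells, where 18.9% and 11.6% of tested genes were lower, with medians of -3.12 and -3.09. Against NKT-3, 3 were lower and none higher, where 4.42% of tested genes were lower and 16.2% higher. Ccnb1, cyclin B1, averaged 4.16 ± 0.849 FPKM in DN1eP (SD, n = 4) and 87.3 ± 21.5 FPKM in NKT-1 libraries of the set (n = 3), a difference of -4.09 ± 0.28 (adjusted p 6.1e-11), and Cdk1, its kinase, differed by -3.52 ± 0.26. Against NKT-2, Plk1, a mitotic kinase, differed by -3.43 ± 0.45. Against NKT-3, Aurkb, another mitotic kinase, was lower in DN1eP by -1.08 ± 0.37 and Ccnb1 by -0.93 ± 0.28. Aurkb no longer passed in 13 of 20 alternative settings (-2.003 to -0.51, limma adjusted p 0.0642 to 0.390) and Ccnb1 in 7 (-1.07 to 0.37, adjusted p 0.0602 to 0.633).

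In DN1eP-NKT cells all 10 were higher than in NKT-3 (median 4.27, with 15% of tested genes higher), with Aurkb and Ccnb1 each higher by 4.60, none passed against NKT-1, and Mki67, the Ki-67 antigen of cycling cells, was higher than in NKT-2 by 0.94 ± 0.22. Mki67 averaged 106 ± 4.95 FPKM in DN1eP-NKT (n = 4) and 55.4 ± 9.44 FPKM in NKT-2 libraries (n = 4). All 10 were also lower in NKT-3 than in NKT-2 and in NKT-1 cells (medians -3.14 and -3.16, with 18.4% and 26.6% of tested genes lower), led by Ccnb1 (-3.74 ± 0.20 and -3.82 ± 0.22) and Top2a, topoisomerase II (-3.44 ± 0.20 and -3.57 ± 0.22). None of the 10 differed past the test between NKT-2 and NKT-1 (median -0.08). Set-adjusted, all 10 were higher in DN1eP-NKT than in DN1eP cells (median 3.96, with 15% of tested genes higher), with Ccnb1 at 4.56 ± 0.31 and Aurkb at 4.53 ± 0.42.

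Of 41 other replication genes, 28 were lower and 1 higher in DN1eP than in NKT-1, 21 lower and 1 higher than in NKT-2, and 4 lower and 2 higher than in NKT-3. Of all tested genes 18.9%, 11.6% and 4.42% were lower and 14.7%, 17.9% and 16.2% higher in these comparisons. Uhrf1, which keeps methylation on copied DNA, was lower by -3.36 ± 0.22 and -2.80 ± 0.22 against NKT-1 and NKT-2, and Asf1b, a histone chaperone, by -2.76 ± 0.25 and -2.27 ± 0.25. Against NKT-3, Samhd1, which breaks down nucleotides, was higher in DN1eP by 1.18 ± 0.17 and Rnaseh2c, an RNase H2 subunit, lower by -2.16 ± 0.64, a call lost in 5 of 20 alternative settings. In DN1eP-NKT cells 28 were higher and none lower than in NKT-3, led by Uhrf1 (3.55 ± 0.22) and Asf1b (3.43 ± 0.25), 1 was higher and 2 lower than in NKT-1, and 1 higher and 1 lower than in NKT-2. Of all tested genes 15%, 8.49% and 11.1% were higher and 8.39%, 6.76% and 7.97% lower than in NKT-3, NKT-1 and NKT-2. Cdca7, a chromatin factor, was lower than in NKT-1 and NKT-2 (-1.38 ± 0.35 and -0.80 ± 0.28), Timeless, which protects the replication fork, lower than in NKT-1 (-0.86 ± 0.26), and Samhd1 higher than in NKT-2 (0.80 ± 0.16). Cdca7 against NKT-2 no longer passed in 10 of 21 alternative settings (-0.86 to -0.51, limma adjusted p 0.0662 to 0.225), and Timeless in 5 of 19 (-0.91 to -0.13, adjusted p 0.0510 to 0.774). In NKT-3 cells 27 were lower and 1 higher than in NKT-2, and 31 lower and 2 higher than in NKT-1, where 18.4% and 26.6% of tested genes were lower and 10.6% higher in each, led by Uhrf1 (-2.71 ± 0.16 and -3.29 ± 0.17) and Cdca7 (-2.51 ± 0.22 and -3.27 ± 0.25). None passed between NKT-2 and NKT-1, and set-adjusted 24 were higher and none lower in DN1eP-NKT than in DN1eP cells, against 15% and 16.6% of tested genes.

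Of 18 further genes of G1/S control, 12 were lower and none higher in DN1eP than in NKT-1, 10 lower and none higher than in NKT-2, and Fbxo5 alone lower than in NKT-3 (-0.72 ± 0.23), a call lost in 8 of 20 alternative settings. Of all tested genes 18.9%, 11.6% and 4.42% were lower in these comparisons, and 14.7%, 17.9% and 16.2% higher. Fbxo5, an inhibitor of the anaphase-promoting complex, and Cks1b, a partner of cyclin-dependent kinases, led with -3.32 ± 0.23 and -3.25 ± 0.23 against NKT-1 and with -3.06 ± 0.23 and -2.82 ± 0.23 against NKT-2. In DN1eP-NKT cells 11 were higher and none lower than in NKT-3, led by Ccna2, cyclin A2 (4.01 ± 0.37), and E2f8, a repressor E2F (3.75 ± 0.26). Of tested genes 15% were higher and 8.39% lower than in NKT-3. Against NKT-1 1 was higher and 1 lower, and against NKT-2 3 were higher and 1 lower, where 8.49% and 11.1% of tested genes were higher and 6.76% and 7.97% lower. E2f7, another repressor E2F, was higher in DN1eP-NKT than in NKT-1 and NKT-2 cells (1.02 ± 0.24 and 1.05 ± 0.20), Cdk2 lower than in NKT-1 (-0.99 ± 0.24) and E2f3 higher than in NKT-2 (0.73 ± 0.22), the last lost in 5 of 21 alternative settings. E2f7 averaged 5.45 ± 0.854 FPKM in DN1eP-NKT (n = 4), against 2.16 ± 0.400 FPKM in NKT-1 (n = 2) and 2.14 ± 0.683 FPKM in NKT-2 libraries (n = 4). In NKT-3 cells 12 were lower and none higher than in NKT-2 and likewise than in NKT-1, where 18.4% and 26.6% of tested genes were lower and 10.6% higher in each. Cks1b was at -2.78 ± 0.17 and -3.12 ± 0.19 and E2f8 at -2.62 ± 0.19 and -3.09 ± 0.21. None passed between NKT-2 and NKT-1, and set-adjusted 12 were higher and none lower in DN1eP-NKT than in DN1eP cells, against 15% and 16.6% of tested genes, led by E2f8 (3.21 ± 0.30) and Cks1b (3.12 ± 0.26).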

How the data were processed

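The deposited files hold FPKM values per gene with their confidence limits, 1 file per library. Per the submitters' processing notes, reads were treated with TopHat2 2.0.6 and Cufflinks 2.1.1 against mm9. Libraries were made with a SMARTer Ultra Low Input or a TruSeq v2 kit, per the labels' protocols, which do not say which library had which. The sources used here give neither read depth nor strand, so reads of overlapping or antisense genes cannot be told apart. Of 23267 symbols, 86 that some file lacked and 13 whose estimate had failed in some file were not used.

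From there, log2(FPKM + 1) was fitted with limma 3.58.1 (R 4.3.3; trend, robust) in 8 cells of group by library set (18 residual degrees of freedom) for the 11663 genes that reached 1 FPKM in 4 libraries or more, with Benjamini-Hochberg adjustment over all of them and a threshold of 0.05. DN1eP and DN1eP-NKT were compared with thymic libraries of their own set, and stage differences were the mean of both sets. All differences are on this log2(FPKM + 1) scale and understate the change of low genes, ± values beside them are standard errors, and those beside FPKM are SD. The sets were defined from the median FPKM, not from a label. Files give coordinates in mm9, while promoters are in GRCm38.p6. No library was left out.

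The rule for named genes took, in each comparison, the 4 members past the threshold with the largest differences, up to 4 that went against the majority, and 2 genes of each other list. Further members were named to cover each role, with their values seen. The members and lists were chosen with earlier results of these data known. Replicate numbers were not used as pairs, since deviations of same-numbered libraries did not correlate above 0.1 in every pair (-0.35 to 0.48 over 24 pairs), although those of library 1 in NKT-1, in NKT-2 and in DN1eP-NKT did (0.431 to 0.484). Alternatives changed the pseudocount, filter, scaling, weights, set term, row per symbol, replicate block and the libraries included.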

Additional observations from a re-analysis of the deposited data

Results flagged for a closer look

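Rfc3, a subunit of the clamp loader, was at 18.9 FPKM in DN1eP library 1, against 43.2 to 48.0 FPKM in the other 3 DN1eP libraries. It was picked out because this library lay far from the others of its group, with a gap of 0.834 of the group's whole range. The search covered 14 genes in 3 groups of 4 libraries or more within a set, and chance picks out about 1 in 20 groups. The same library held 371 FPKM of myeloid markers, against 21.4 to 33.0 FPKM in the other 3, and the part of these in the Rfc3 value was not tested.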

How the results depend on the processing

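In 5 comparisons the count of members past the threshold stayed within 1.5 times the reported one in every setting run. It was 32 to 40 lower for DN1eP against NKT-1, 38 to 48 higher for DN1eP-NKT against NKT-3, 37 to 45 lower for NKT-3 against NKT-2, 40 to 47 lower for NKT-3 against NKT-1, and 30 to 37 higher for DN1eP-NKT against DN1eP. For DN1eP against NKT-2, 20 were lower with the replicate block and 21 in a fit on the compared libraries, where 33 were reported, and leaving out 1 library gave 27 to 34. For DN1eP against NKT-3, 7 were higher and 8 lower after quantile normalization, 5 higher with the replicate block and 3 on the compared libraries, where 10 were reported, and leaving out 1 library gave 4 to 12. For DN1eP-NKT against NKT-1, 2 were lower after quantile normalization, with an additive set term or with the set ignored, 0 on the compared libraries, 0 without DN1eP library 1 and DN1eP-NKT library 1 together (a setting chosen after seeing the data), and 0 to 1 without 1 library. For DN1eP-NKT against NKT-2, 1 was higher at a pseudocount of 0.1 or with the set ignored, 6 with array weights, and 0 to 2 without 1 library. For NKT-2 against NKT-1, 0 were lower at a pseudocount of 0.1, after upper-quartile scaling, after quantile normalization, with the set ignored, with the replicate block, with NKT-2 library 6 and NKT-3 library 5 both left out, and on the compared libraries, 2 with array weights, 3 in the setting added later, and 0 to 1 without 1 library. With the set ignored, Pola2 in DN1eP against NKT-2 was -0.0782 (limma adjusted p 0.938), Ccnb1 in DN1eP against NKT-3 was 0.37 (adjusted p 0.633) and Mcm2 in DN1eP-NKT against NKT-1 was 0.26 (adjusted p 0.661). Over 105 pairs of a named gene and a comparison, 2321 of 2463 refitted values showed no change in call. Of the rest, 136 no longer passed the threshold, 3 newly passed it and 3 changed sign. A change of sign was counted only where the gene passed in the reported fit or in the refit. Any sign change of a gene that passed in neither is among the 2321. The cause of these changes was not tested, and shares of all tested genes are not given for these settings. With the replicate block, Mcm2 lost its call against NKT-1 in DN1eP-NKT and Mcm6 gained one, and Pole lost its call against NKT-2 and Gmnn gained one. Deviations of same-numbered libraries correlated at -0.35 to 0.48 (median -0.03 over 24 pairs), and the block was not used elsewhere. Without read counts, depth limits on single values are unknown.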
